A study of Mus musculus with 4 samples.

Results

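The genes described here are 10 mouse genes of the NRF2 and cystine-glutathione system, measured in single cells of tumor ascites. They are Slc7a11, Gclc, Gclm, Gsr, Gpx4, Txnrd1, Srxn1, Nqo1, Nfe2l2 and Acod1, taken by their symbols from the 32285 genes of the count matrices. All 10 had UMIs (unique molecular identifiers, each marking 1 captured mRNA molecule) in all 4 libraries. The ascites came from female FVB mice carrying intraperitoneal Br-Luc ovarian tumor cells, a luciferase-marked mouse line that per the study's description lacks p53 and Brca1 and carries Myc and activated Akt. The mice received a control siRNA (siCont) or an siRNA against Fxr1 (siFXR1-LNA), both with locked nucleic acid bases per the study's text, complexed with jetPEI and injected into the peritoneal cavity, and ascites was taken 6 weeks after tumor injection. There were 2 libraries per group, each made from ascites pooled from 3 mice, so that no value belongs to a single animal and p-values measure only the spread between these pools. Values are given as replicate 1 then replicate 2 of each group. The study reported lower Fxr1 in epithelial cells after siFXR1-LNA. Here Fxr1 was not lower in the treated group over all cells, whose mix of types differed between the groups, or within macrophages. Over all cells its level was 55.8 and 33.9 CPM (UMIs scaled to a total of 1000000 UMIs) in the siCont libraries. In the libraries labelled siFXR1-LNA it was 104 and 71.8 CPM, and within macrophages it was 65.4 and 60.8 against 73.5 and 68.7 CPM. The comparisons are therefore between libraries by their labels.

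NRF2, encoded by Nfe2l2, is a transcription factor that the adaptor KEAP1 keeps at a low level by marking it for destruction. Electrophiles and oxidants modify KEAP1, NRF2 then accumulates, and with small MAF proteins it binds antioxidant response elements near genes for glutathione synthesis, thioredoxin recycling and quinone reduction. Slc7a11 is also switched on by ATF4, the factor of the amino acid starvation response, and in activated macrophages Acod1 makes itaconate, an electrophilic metabolite known to modify KEAP1. The cystine taken up by the Slc7a11 transporter supplies the cysteine that glutathione is built from, and Gpx4 uses glutathione to detoxify lipid peroxides, which protects cells from ferroptosis.

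RefSeq promoter windows of GRCm38.p6, from 250 bases before to 50 bases after each annotated start, were held for 8 of the 10 genes, in 13 windows, and none was held for Gclc and Gsr. The core of the antioxidant response element, TGACNNNGC, was searched on both strands without other motifs. A match was found in windows of 4 of the 8 genes (4 of 13 windows), against 12.4% of all 32851 windows of the same length. Those 4 windows are shown because they differ in where the match lies, and the window of Slc7a11, the gene with the highest fold change in macrophages, is shown because it held none. Capitals mark the match, which on the printed strand reads as the motif or as its reverse complement. The matches begin at -134 for Gclm, -92 for Txnrd1, +29 for Srxn1 and -240 for Nfe2l2, counted from the start site. A match is a string of letters and not a binding site, and a window without one says only that these letters are not in these 300 bases.
Gclm, chr3:122245307-122245606, plus strand: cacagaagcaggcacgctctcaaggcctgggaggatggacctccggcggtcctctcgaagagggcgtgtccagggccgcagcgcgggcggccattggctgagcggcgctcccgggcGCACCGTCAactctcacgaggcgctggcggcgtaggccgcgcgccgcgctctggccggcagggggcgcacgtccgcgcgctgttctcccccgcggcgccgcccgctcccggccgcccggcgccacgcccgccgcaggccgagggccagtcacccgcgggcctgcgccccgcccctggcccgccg
Txnrd1, chr10:82858956-82859255, plus strand: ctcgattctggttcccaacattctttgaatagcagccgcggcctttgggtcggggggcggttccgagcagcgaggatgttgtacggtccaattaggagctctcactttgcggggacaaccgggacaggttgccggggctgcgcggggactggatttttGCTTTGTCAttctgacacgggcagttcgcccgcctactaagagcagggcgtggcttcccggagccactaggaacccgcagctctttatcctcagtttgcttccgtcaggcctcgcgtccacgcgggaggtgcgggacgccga
Srxn1, chr2:152105274-152105573, plus strand: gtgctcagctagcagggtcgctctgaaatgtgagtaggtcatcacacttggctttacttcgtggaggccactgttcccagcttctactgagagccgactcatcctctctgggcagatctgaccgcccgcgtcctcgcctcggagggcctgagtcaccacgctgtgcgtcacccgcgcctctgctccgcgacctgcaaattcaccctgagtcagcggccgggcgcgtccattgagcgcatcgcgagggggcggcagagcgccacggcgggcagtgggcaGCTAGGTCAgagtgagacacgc
Nfe2l2, chr2:75704614-75704913, minus strand: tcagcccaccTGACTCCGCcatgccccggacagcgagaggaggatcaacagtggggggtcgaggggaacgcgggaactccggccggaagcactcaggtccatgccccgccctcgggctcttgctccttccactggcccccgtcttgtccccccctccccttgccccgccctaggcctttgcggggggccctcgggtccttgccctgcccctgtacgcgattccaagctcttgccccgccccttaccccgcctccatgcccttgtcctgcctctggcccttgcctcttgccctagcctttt
Slc7a11, chr3:50443564-50443863, minus strand: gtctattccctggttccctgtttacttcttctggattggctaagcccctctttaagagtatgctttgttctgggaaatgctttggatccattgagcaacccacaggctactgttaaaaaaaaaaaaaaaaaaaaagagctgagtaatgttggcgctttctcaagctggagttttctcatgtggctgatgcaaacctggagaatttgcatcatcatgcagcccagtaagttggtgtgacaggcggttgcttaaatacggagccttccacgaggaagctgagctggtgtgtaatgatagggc

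In the same build the genes lie at chr3:49892526-50443614 (Slc7a11, minus strand), chr9:77754535-77794485 (Gclc, plus), chr3:122245557-122270732 (Gclm, plus), chr8:33652523-33698163 (Gsr, plus), chr10:80047166-80056439 (Gpx4, plus), chr10:82833951-82897712 (Txnrd1, plus), chr2:152105516-152111376 (Srxn1, plus), chr8:107388225-107403206 (Nqo1, minus), chr2:75675513-75704641 (Nfe2l2, minus) and chr14:103046977-103056573 (Acod1, plus). Other gene models overlap on the same strand for Slc7a11 (Gm37692 and Gm37498), Gclm (Gm6061), Gsr (Gm24727), Txnrd1 (Eid3) and Nfe2l2 (Gm24996), so UMIs of the shared stretches could not be told apart.

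After filtering, the libraries held 36311 and 25115 cells (siCont) and 54344 and 16874 cells (siFXR1-LNA), with median depths between 1349 and 2653 UMIs per cell. Hemoglobin transcripts made up 30.5% and 43.0% of their UMIs in the siCont libraries and 10.2% in both others, and the first library labelled siFXR1-LNA held 41040 shallow cells that no marker list named. Between 3.41% and 7.84% of the smaller library's barcodes were shared within each pair of libraries. Cells were named by marker lists, which gave 4371, 2140, 3931 and 3667 macrophages, 436, 902, 5470 and 4797 granulocytes, 847, 122, 1478 and 418 tumor or mesothelial cells, and 807, 339, 142 and 159 dendritic cells. In all, 8 cell types were compared, as 32 sums of UMIs over the cells of a type in a library. In these sums fewer expressing cells and less RNA per cell cannot be told apart.

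The cystine transporter Slc7a11 and the itaconate enzyme Acod1 were low in siCont macrophages and far higher in macrophages of both libraries labelled siFXR1-LNA, glutathione reductase Gsr and the glutamate-cysteine ligase subunit Gclc rose less, and Nfe2l2 did not rise. With edgeR's quasi-likelihood test and an adjusted p under 0.05, 4 of the 10 genes were called, all higher, where 19.3% of all 14297 tested genes were called in either direction. The median log2 fold change of the 10 genes was 0.58, against 0.01 over all tested genes.

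Slc7a11, the light chain of the cystine/glutamate antiporter, was at 5.198 and 1.38 CPM in siCont macrophages (120 and 24 UMIs) and at 209 and 196 CPM in macrophages of the libraries labelled siFXR1-LNA (4752 and 6447 UMIs). The difference was 6.10 on the log2 scale (SE 0.57, adjusted p = 0.00686 by edgeR), and both siCont libraries lay far below both others. Acod1 was at 7.36 and 8.70 CPM against 381 and 428 CPM, a log2 difference of 5.84 (SE 0.20, edgeR adjusted p = 0.00171). Both calls held under each of 10 alternatives, with adjusted p from 2.35e-12 to 0.0429 for Slc7a11 and from 6.06e-205 to 0.0308 for Acod1.

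In shares of cells the same pair stood apart. With every cell thinned to 1000 UMIs, a Slc7a11 UMI was found in 0.419% and 0.0953% of siCont macrophages and in 14.0% (95% exact binomial interval 12.9 to 15.1) and 12.6% (11.5 to 13.7) of macrophages labelled siFXR1-LNA. Without thinning the shares were 1.17%, 0.841%, 36.6% and 39.8%. B cells, given for comparison, held Slc7a11 in 0.0569%, 0%, 1.27% and 1.10% of thinned cells (median depths from 2024 to 2719 UMIs, against 4944 to 8605 in macrophages). In CPM, Slc7a11 in B cells was at 0.313 and 0 in siCont and at 16.6 and 21.5 in the others, so that macrophages lay above the B cells of their own library in all 4 libraries. For Acod1 the thinned shares were 0.744%, 0.619%, 20.9% and 20.1% in macrophages and 0.0854%, 0.0414%, 1.96% and 3.77% in B cells. Intervals cover counting error only. The 0 of 2414 thinned B cells in the second siCont library allows a share of up to 0.124%.

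Gsr, which returns oxidised glutathione to its reduced form with NADPH, was at 96.0 and 169 CPM in siCont macrophages and at 388 and 396 CPM in macrophages labelled siFXR1-LNA (log2 difference 1.75, SE 0.31, edgeR adjusted p = 0.0229). The spread was wider between the siCont libraries than between the others, and the groups did not overlap. The call for Gsr was lost without either library labelled siFXR1-LNA (adjusted p from 5.92e-08 to 0.0967 over 10 alternatives).

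The enzyme that starts glutathione synthesis moved unevenly between its subunits. Gclc, the catalytic subunit of glutamate-cysteine ligase, rose from 30.5 and 23.4 CPM to 52.1 and 41.3 CPM (log2 difference 0.98, SE 0.19, edgeR adjusted p = 0.0264), with no overlap but a call that was lost without the second siCont library or either library labelled siFXR1-LNA (adjusted p from 0.000629 to 0.13 over 10 alternatives). Gclm, the modifier subunit, was at 129 and 96.7 CPM against 153 and 140.5 CPM, a log2 difference of 0.57 (SE 0.17) that did not pass the test (edgeR adjusted p = 0.0731).

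The thioredoxin-side genes and Nfe2l2 were close between the groups. Txnrd1, the cytosolic thioredoxin reductase, was at 190.2 and 102 CPM in siCont macrophages and at 161 and 138 CPM in the others, so the ranges overlapped (log2 difference 0.23, SE 0.29, edgeR adjusted p = 0.61). Srxn1, which repairs over-oxidised peroxiredoxins, was at 26.4 and 19.0 CPM against 26.7 and 27.5 CPM (edgeR adjusted p = 0.129). Nqo1, a quinone reductase often used as a readout of NRF2, was at 2.51 and 1.33 CPM against 2.90 and 2.19 CPM (23 to 72 UMIs per library, edgeR adjusted p = 0.347). None of these 3 genes was called in macrophages, while Slc7a11, Gclc and Gsr, also of the NRF2 and glutathione system, were called higher. The part of NRF2 in either was not tested. Gpx4 was at 529 and 421 CPM against 576 and 618 CPM (log2 difference 0.52, SE 0.17, edgeR adjusted p = 0.0924). Nfe2l2 was at 168 and 159 CPM in siCont macrophages and at 122 and 128 CPM in the others, lower in both libraries without passing the test (log2 difference -0.20, SE 0.12, edgeR adjusted p = 0.28).

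**Figure D1:**
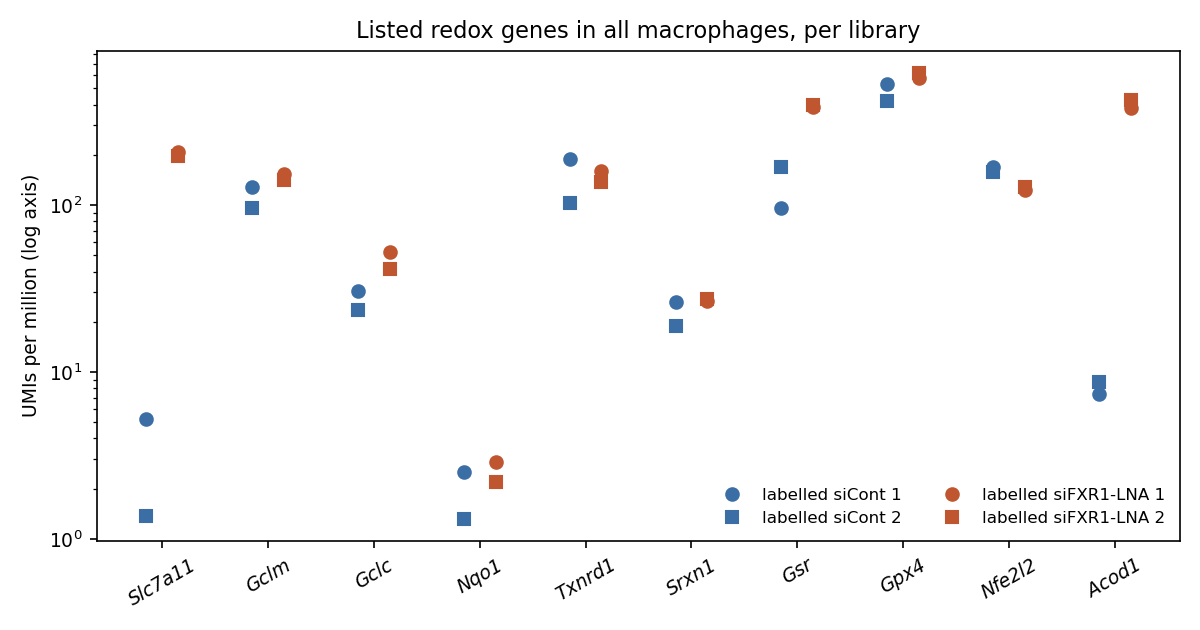
Level of each of the 10 genes in macrophages, in CPM on a log axis, with 1 point per library (blue, siCont; red, siFXR1-LNA; circles, replicate 1; squares, replicate 2). Slc7a11 and Acod1 lie below 10 CPM in both siCont libraries and between 196 and 428 CPM in both libraries labelled siFXR1-LNA, while the points for Txnrd1 overlap.

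Other measures moved with these macrophage differences. The summed level of the 7 macrophage markers was 10310 and 9361 CPM in siCont macrophages and 3789 and 5473 CPM in macrophages labelled siFXR1-LNA, with no marker at 0. The 10 granulocyte markers summed to 120.1 and 428 CPM against 1312 and 1546 CPM there, while granulocytes themselves held 29200 to 86370 CPM. Hemoglobin transcripts made up 8.16% and 5.84% against 2.95% and 1.24% of macrophage UMIs. Their part in the results for Slc7a11, Acod1, Gsr and Gclc was not tested.

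Macrophages were then split by Nos2, the inducible nitric oxide synthase that marks inflammatory activation, into cells with at least 2 Nos2 UMIs and cells below. No siCont macrophage reached 2 UMIs (0 of 4371 and 0 of 2140 cells, which allows shares of up to 0.0686% and 0.14%), and 36.4% (exact interval 34.9 to 37.9) and 37.9% (36.4 to 39.5) of macrophages labelled siFXR1-LNA did. The groups could therefore be compared in Nos2-low macrophages only. The Nos2-high cells were deeper, with medians of 7104 and 10931 UMIs against 4501 and 7453 UMIs in Nos2-low cells of the same libraries.

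In Nos2-low macrophages Slc7a11 and Acod1 were again the genes that separated the groups, and 2 of the 10 genes were called where 5.53% of 13771 tested genes were. Slc7a11 was at 138 and 129 CPM in Nos2-low macrophages labelled siFXR1-LNA, against the 5.198 and 1.38 CPM of siCont (log2 difference 5.39, SE 0.57, edgeR adjusted p = 0.0247). Acod1 was at 332 and 363 CPM against 7.36 and 8.70 CPM (log2 difference 5.52, SE 0.19, edgeR adjusted p = 0.00561). Both calls were lost when either library labelled siFXR1-LNA was left out, with adjusted p up to 0.122 for Slc7a11 and up to 0.0654 for Acod1 over 13 alternatives, and lows of 3.99e-26 and 8.74e-170. Gsr was at 371 and 357 CPM there (log2 difference 1.54, SE 0.31, edgeR adjusted p = 0.0582) and Gclc at 45.0 and 37.5 CPM (0.70, SE 0.19, adjusted p = 0.105). Different clusters held most of these cells in the groups: a cluster led by Alox15, Apoe and Fcna and a cluster led by Slfn4, Nr1h3 and Cxcl10 in siCont, and the first of these beside a cluster led by Nos2, Saa3 and Mt2 in the others.

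Within the libraries labelled siFXR1-LNA, Nos2-high cells held more Slc7a11 than Nos2-low cells of the same library, and smaller differences were seen for Acod1, Gclc, Gsr and Gclm. The fit used the 2 libraries with both states, with the library as a block. It called 5 of the 10 genes, all higher in Nos2-high cells, where 23.4% of 13170 tested genes were called. Slc7a11 was at 138 and 129 CPM in Nos2-low and 292 and 274 CPM in Nos2-high cells (log2 difference 1.33, SE 0.12, edgeR adjusted p = 1.93e-07). Acod1 was at 332 and 363 against 438 and 504 CPM (0.68, SE 0.14, adjusted p = 0.000973). Both genes were higher in the Nos2-high cells of both libraries.

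The glutathione synthesis genes differed less between the states. Gclc was at 45.0 and 37.5 CPM in Nos2-low and 60.4 and 45.9 CPM in Nos2-high cells (log2 difference 0.60, SE 0.10, edgeR adjusted p = 0.00025). Gsr was at 371 and 357 against 408 and 441 CPM (0.46, SE 0.14, adjusted p = 0.0184). Gclm was at 148 and 134 against 158 and 148 CPM (0.36, SE 0.11, adjusted p = 0.0267), a call that DESeq2 and thinning to 1000 UMIs did not give (adjusted p from 0.0076 to 0.402 over the alternatives). The other members were not called: Gpx4 (adjusted p = 0.192), Srxn1 (0.157), Txnrd1 (0.244), Nqo1 (0.648) and Nfe2l2, which was at 134 and 152 CPM in Nos2-low and at 109 and 98.8 CPM in Nos2-high cells (log2 difference -0.22, SE 0.11, adjusted p = 0.176, all by edgeR).

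In finer steps of Nos2, given as a description, most of the difference in Slc7a11 lay between 0 and 1 Nos2 UMI. In cells with 0, 1, 2 to 3, 4 to 7 and 8 or more Nos2 UMIs it was at 104, 245, 276, 290.3 and 315 CPM in the first library labelled siFXR1-LNA and at 110.0, 216, 264, 244 and 307 CPM in the second. Acod1 was at 296, 447, 480.5, 382 and 457 CPM and at 329.7, 509, 528, 528 and 469 CPM, so that it was no higher at 8 or more UMIs than at 2 to 3. Nfe2l2 went the other way, from 139 and 156 CPM at 0 UMIs to 109.8 and 91.6 CPM at 8 or more. Gclc was highest in the top step of both libraries, at 80.9 and 59.4 CPM, beside 39.9 and 35.7 CPM at 0 UMIs. Even the cells with 0 Nos2 UMIs held far more Slc7a11 than siCont macrophages with 0 Nos2 UMIs, which were at 5.204 and 1.15 CPM.

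**Figure D2:**
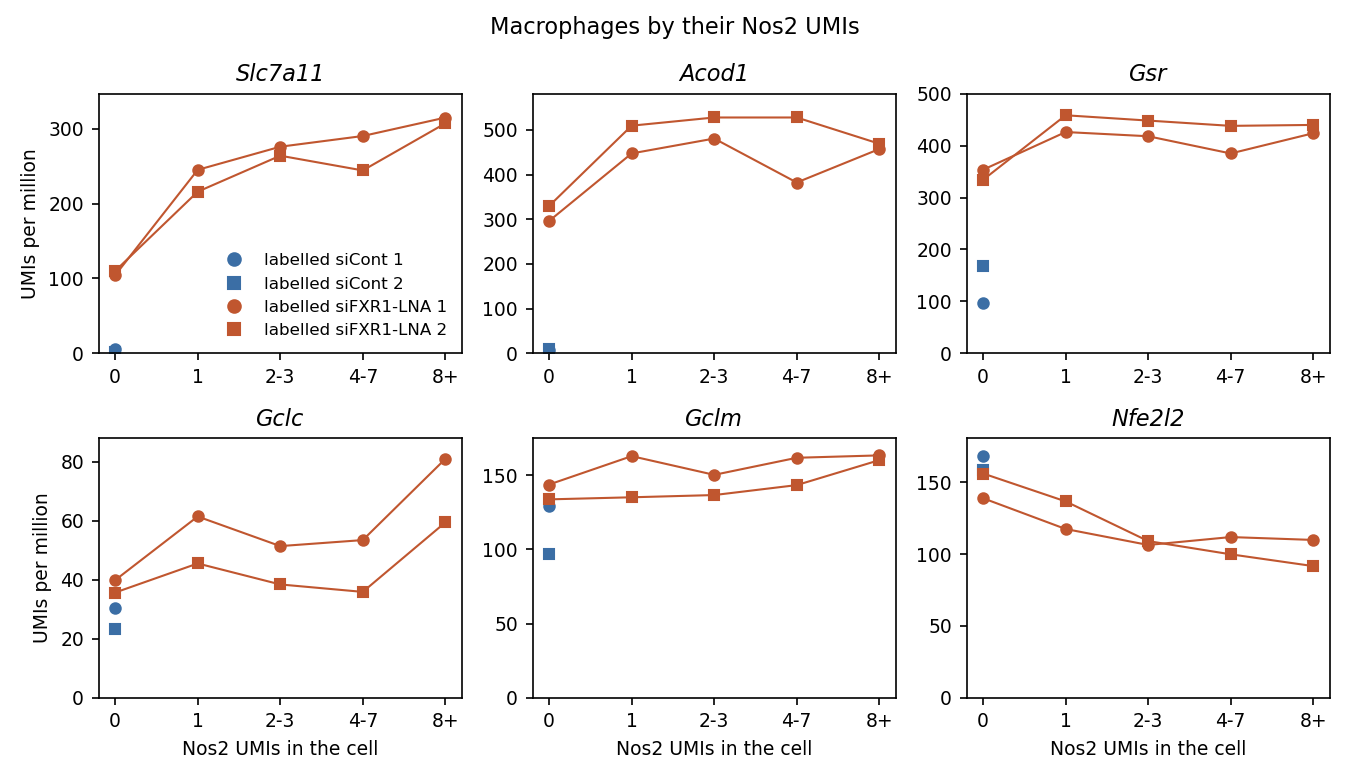
Level in CPM (linear axes from 0) of 6 members in macrophages binned by their Nos2 UMIs (x axis), with 1 line per library labelled siFXR1-LNA and siCont points at 0 Nos2 UMIs. Slc7a11 goes from 104 and 110.0 CPM at 0 to 245 and 216 CPM at 1 Nos2 UMI and ends at 315 and 307 CPM, and Nfe2l2 goes from 139 and 156 to 109.8 and 91.6 CPM.

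Macrophage subclusters, found with all genes and so described without a test, showed where the transcripts lay. In the cluster led by Alox15, Apoe and Fcna (2977, 1227, 1182 and 1292 cells) Slc7a11 was at 6.39, 1.048, 14.4 and 13.02 CPM and Acod1 at 3.75, 1.36, 25.0 and 34.7 CPM, which in the libraries labelled siFXR1-LNA is no more than their B cells held. Gsr in this cluster was at 103, 225, 297 and 262 CPM. In the cluster led by Nos2, Saa3 and Mt2 (114, 44, 2724 and 2330 cells), whose leading genes include Slc7a11 and Acod1 themselves and which raised 1 macrophage and 4 granulocyte markers against the other macrophages, Slc7a11 was at 269.5 and 278 CPM and Acod1 at 489 and 599 CPM in the pair labelled siFXR1-LNA.

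Inside that Nos2-led cluster the Nos2-low cells were not low in the listed genes. Slc7a11 was at 230.2 and 281 CPM in its Nos2-low cells and at 296 and 277 CPM in its Nos2-high cells. Acod1 was at 556 and 779 CPM in its Nos2-low cells and at 443 and 505 CPM in its Nos2-high cells, the reverse of the order over all macrophages. The Slc7a11 and Acod1 of Nos2-low macrophages thus came mainly from cells of the Nos2-led cluster, with 1620 of 1692 and 2173 of 2293 Slc7a11 UMIs and 3911 of 4081 and 6035 of 6425 Acod1 UMIs. A cluster led by Slfn4, Nr1h3 and Cxcl10 was found in siCont only (1036 and 713 cells, beside 0 and 1), with Acod1 at 21.8 and 22.8 CPM and Nfe2l2 at 221 and 229 CPM.

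Tumor or mesothelial cells differed in enzymes of glutathione synthesis and thioredoxin recycling, and Txnrd1 and Srxn1 were also higher in lymphocytes, without a call. Gclc and Txnrd1 rose in tumor or mesothelial cells without overlap between the groups. In these cells 5 of the 10 genes were called, all higher in the libraries labelled siFXR1-LNA, where 7.87% of 13117 tested genes were called. Among the 5, Slc7a11 and Acod1 passed the filter on low counts through the libraries labelled siFXR1-LNA alone, so nothing is read from the count of 5. The 10 genes had a median log2 fold change of 1.09 there, beside 0.76 in granulocytes, 0.99 in B cells, 0.87 in T cells and 0.92 over the 9 tested in dendritic cells, and between -0.01 and 0 over all tested genes of these types. Members that passed the filter through 1 group alone enter these medians (2 in tumor or mesothelial cells, 3 in B cells, 2 in T cells, 1 in dendritic cells, 0 in granulocytes). The medians are therefore a description only. The keratin and mesothelial markers summed to 2438 and 2466 CPM in siCont and to 1796 and 1787 CPM in the others, and tumor cells were not separated from mesothelium.

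Gclc was at 25.4 and 32.7 CPM in siCont tumor or mesothelial cells and at 96.2 and 78.9 CPM in the others (log2 difference 1.68, SE 0.27, edgeR adjusted p = 0.00674). Txnrd1 was at 113 and 93.2 CPM against 307 and 224 CPM (1.40, SE 0.27, adjusted p = 0.0146). Both calls held under each of 10 alternatives, with adjusted p from 3.41e-07 to 0.0474 for Gclc and from 1.72e-05 to 0.0457 for Txnrd1. These levels lay above those of B and T cells of the same libraries, where Gclc was at 23.8 to 51.2 CPM and Txnrd1 at 91.6 to 179 CPM. Txnrd1 rose in lymphocytes as well, by 1.07 in B cells and 1.02 in T cells (edgeR adjusted p = 0.385 and 0.43). The Gclc differences there were 0.38 and 0.42.

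Srxn1 rose from 9.27 and 8.65 CPM to 19.1 and 24.8 CPM (log2 difference 1.29, SE 0.31, edgeR adjusted p = 0.0319), a call lost with DESeq2, without the first siCont library and without the second library labelled siFXR1-LNA (adjusted p from 0.00659 to 0.171). T cells of the same libraries held Srxn1 at 21.3 and 14.6 CPM. Its log2 difference was larger in lymphocytes, at 2.24 in B cells and 1.99 in T cells, without a call (edgeR adjusted p = 0.257 and 0.251). Slc7a11 was at 2.10 and 3.84 CPM against 15.04 and 9.74 CPM (2.37, SE 0.52, edgeR adjusted p = 0.0226), and Acod1 at 0.175 and 0.961 CPM against 24.8 and 28.6 CPM (6.37, SE 0.58, adjusted p = 0.000477). The Acod1 value rests on 2 UMIs in siCont and 312 in the others, a ratio of 87.2 with a counting interval of 23.9 to 724.

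In the libraries labelled siFXR1-LNA, Slc7a11 and Acod1 of tumor or mesothelial cells were near the level of lymphocytes or below it. Slc7a11 was at 16.6 and 21.5 CPM in B cells and 21.8 and 16.0 CPM in T cells of these libraries, and Acod1 at 26.2 and 56.6 CPM in B cells and 23.7 and 30.6 CPM in T cells. In siCont, Slc7a11 of tumor or mesothelial cells lay above B cells (0.313 and 0 CPM) and T cells (0.194 and 0.16 CPM). Free RNA was not subtracted, and its part in these 2 genes was not tested. The Slc7a11 call there was also lost without the first siCont library, without the first library labelled siFXR1-LNA and without the cells with the highest doublet scores (adjusted p from 0.000132 to 0.2). Granulocyte markers in tumor or mesothelial cells summed to 100.3 and 163 CPM against 1300 and 876 CPM, and Ly6g, Camp and Ltf were at 0 in both siCont sums.

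Gclm was at 89.0 and 70.1 CPM against 164 and 124.5 CPM in tumor or mesothelial cells (log2 difference 0.88, SE 0.26, edgeR adjusted p = 0.0679), and Gsr at 130.4 and 169 against 280.1 and 219 CPM (0.78, SE 0.27, adjusted p = 0.114). Neither pair of groups overlapped and neither passed the test. Nfe2l2 was at 223 CPM in both siCont libraries and at 322 CPM in both others (0.55, SE 0.24, edgeR adjusted p = 0.187), the highest level of Nfe2l2 of any compared type in each group. Gpx4 was at 462 and 279.6 against 313 and 449 CPM (adjusted p = 0.946) and Nqo1 at 8.22 and 11.5 against 11.7 and 7.86 CPM (adjusted p = 0.881, both by edgeR), with overlapping ranges.

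**Figure D3:**
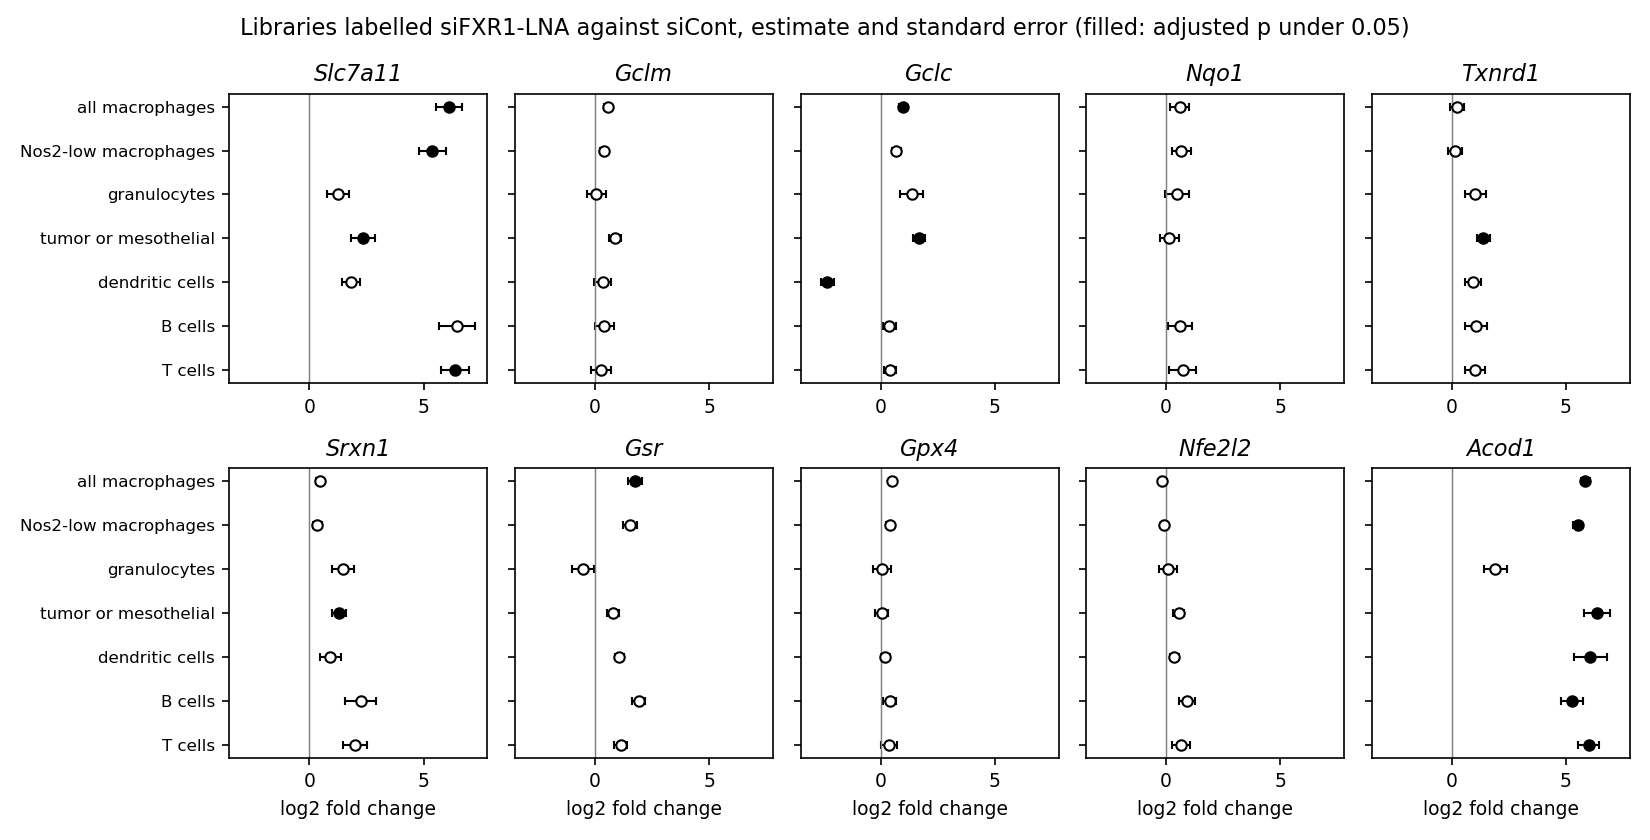
Log2 fold change of each gene between libraries labelled siFXR1-LNA and siCont (x axis) in each compared cell type, with bars of 1 SE and filled points where the adjusted p is under 0.05. Slc7a11 is at 6.10 in macrophages and Acod1 at 5.84, and Gclc lies at 0.98 in macrophages and 1.68 in tumor or mesothelial cells but at -2.33 in dendritic cells.

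Dendritic cells went against the macrophages for Gclc. It was at 94.3 and 109.5 CPM in siCont dendritic cells (414 and 316 UMIs) and at 14.0 and 25.1 CPM in those labelled siFXR1-LNA (11 and 33 UMIs), a log2 difference of -2.33 (SE 0.29, edgeR adjusted p = 0.0129). Of the 9 members tested there, 1 was called lower and 1 higher, where 1.68% of 10238 tested genes were called, and Nqo1, with 2 to 7 UMIs per library, was not tested. The higher one, Acod1, passed the filter on low counts through the libraries labelled siFXR1-LNA alone, so nothing is read from that count. The groups were far apart, but the call for Gclc was lost without either library labelled siFXR1-LNA (adjusted p from 3.89e-15 to 0.0917 over 10 alternatives), and those libraries held 142 and 159 dendritic cells.

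The difference between the cell types was tested itself, in a fit chosen after the Gclc values had been seen. The siFXR1-LNA change of Gclc was lower in dendritic cells than in macrophages by 3.24 on the log2 scale (SE 0.33, edgeR adjusted p = 0.00023), and that of Slc7a11 was lower by 4.31 (SE 0.55, adjusted p = 0.000918). Both calls held under each of 9 alternatives, with adjusted p up to 0.0286 for Gclc and up to 0.0498 for Slc7a11 and lows of 3.27e-31 and 1.93e-47. These were 2 of the 10 genes, where 3.63% of 14170 tested genes were called. The groups held different macrophage clusters, which this test cannot separate from a change within cells.

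The Gclc of siCont dendritic cells lay mainly in 1 of their clusters, which held 380 of 414 and 303 of 316 UMIs. In these cells, led by Fscn1, Ccl22 and Ccr7, genes of dendritic cells on their way to lymph nodes (386, 164, 68 and 90 cells), Gclc was at 202 and 251 CPM in siCont and at 17.9 and 35.1 CPM in the others (6 and 23 UMIs). In cells led by Xcr1 and Clec9a, genes of cross-presenting dendritic cells, it was at 13.6 and 7.75 against 11.1 and 15.2 CPM. Thinned to 1000 UMIs, the share of Fscn1-led cells with a Gclc UMI was 8.36% (exact interval 5.78 to 11.6) and 13.1% (8.31 to 19.4) in siCont and 4.48% (0.933 to 12.5) and 6.74% (2.51 to 14.1) in the others, so the intervals overlapped at that depth. Without thinning the shares were 20.7%, 31.7%, 7.35% and 14.4%. Myeloid cells led by Mgl2 and Cd209a held Gclc at 12.1, 10.5, 28.5 and 14.4 CPM.

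Granulocyte markers summed to 79.6 and 362 CPM in the siCont cells of that cluster and to 4694 and 1510 CPM in the others, and the 8 dendritic cell markers summed to 3701 and 5396 against 2504 and 3619 CPM. The part of these in the Gclc values was not tested. Gpx4, in the same Fscn1-led cells, was at 580.0 and 450 CPM against 528 and 520.3 CPM and Gclm at 91.8 and 51.3 against 137 and 58.0 CPM, so that neither followed Gclc.

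Slc7a11 was already present in siCont dendritic cells. It was at 12.98 and 19.8 CPM against 80.3 and 38.8 CPM (log2 difference 1.81, SE 0.38, edgeR adjusted p = 0.0765), and in the Fscn1-led cells at 28.7 and 46.4 against 149 and 59.5 CPM. Under siFXR1-LNA labels the Fscn1-led cells held 2.00 and 2.29 Slc7a11 UMIs per Acod1 UMI, where macrophages held 0.548 and 0.458 and B cells 0.635 and 0.38. Acod1 was called higher in dendritic cells, at 0.228 and 1.39 against 76.5 and 29.7 CPM (6.07, SE 0.72, edgeR adjusted p = 0.0118). It rests on 5 UMIs in siCont and 99 in the others (ratio 68.7, counting interval 28.5 to 216), it was lost without the first library labelled siFXR1-LNA and without the highest doublet scores (adjusted p from 4.26e-34 to 0.0914), and its second value is within the B cell range. Gsr was at 48.5 and 55.4 against 119.8 and 103 CPM (1.07, SE 0.20), with an edgeR adjusted p of 0.05 that rounds to the threshold without being under it.

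**Figure D4:**
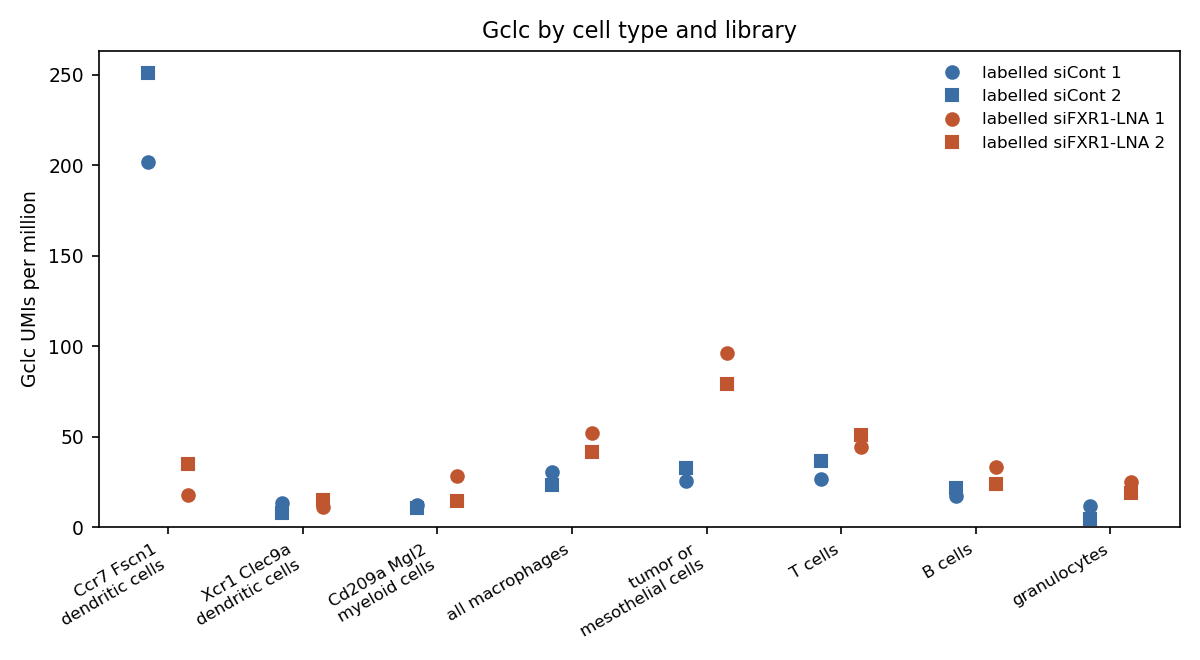
Gclc in CPM (linear axis from 0) in dendritic cell clusters, named by 2 of their leading genes, and in other cell types (x axis), with 1 point per library. The Ccr7 Fscn1 dendritic cells of the siCont libraries stand at 202 and 251 CPM, above every other group of cells shown, and those labelled siFXR1-LNA at 17.9 and 35.1 CPM, within the range of the other types.

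Granulocytes gave no call among the 10 genes, where 3.7% of 12317 tested genes were called by edgeR. At an unadjusted p under 0.05 there were 5 members, all higher in the libraries labelled siFXR1-LNA (Slc7a11, Gclc, Txnrd1, Srxn1 and Acod1), where 18.3% of all tested genes were at such a p and 7.67% were so and higher. DESeq2 called 1 member and 4.81% of all genes. Acod1 was at 49.3 and 80.8 CPM in siCont and at 212 and 386 CPM in the others (log2 difference 1.91, SE 0.50, edgeR adjusted p = 0.0635). Slc7a11 was at 12.97 and 30.7 CPM against 55.9 and 78.0 CPM (1.24, SE 0.49, adjusted p = 0.198). Both ranges were apart. Gclc was at 11.7 and 4.55 against 24.9 and 19.0 CPM, Srxn1 at 5.19 and 5.12 against 18.7 and 16.3 CPM, and Txnrd1 at 72.7 and 46.7 against 185.5 and 97.3 CPM (adjusted p = 0.161, 0.116 and 0.241 by edgeR).

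Gsr in granulocytes was high in both groups. It was at 597 and 1049 CPM in siCont and at 586 and 827 CPM in the others (log2 difference -0.51, SE 0.48, edgeR adjusted p = 0.637), the highest level of Gsr of any compared type in each group. Gclm, Gpx4, Nfe2l2 and Nqo1 had adjusted p values of 0.958, 0.957, 0.931 and 0.704 by edgeR.

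The groups held different granulocytes, which the test cannot separate from a change within cells. Cells led by Camp, Ngp and Ltf, granule genes of developing neutrophils, numbered 430, 891, 53 and 252, and cells led by Ccl3, Stfa2l1 and Cxcl2 numbered 6, 11, 5415 and 4541. Within the Camp-led cells Acod1 was at 44.6 and 70.2 CPM in siCont and at 66.7 and 83.6 CPM in the others, and Slc7a11 at 13.1 and 23.6 against 14.3 and 38.2 CPM, so that both genes had overlapping ranges there. The Ccl3-led cells held Acod1 at 215 and 406 CPM and Slc7a11 at 56.7 and 80.6 CPM in the pair labelled siFXR1-LNA.

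The siFXR1-LNA change differed between granulocytes and macrophages for 3 of the 10 genes, where 4.39% of 14658 tested genes were called. The change in granulocytes was lower than that in macrophages by 4.98 on the log2 scale for Slc7a11 (SE 0.60, edgeR adjusted p = 2.25e-06), by 3.83 for Acod1 (SE 0.41, adjusted p = 3.16e-07) and by 2.12 for Gsr (SE 0.36, adjusted p = 0.000332). The call for Gsr was lost without the first library labelled siFXR1-LNA (adjusted p from 2.57e-09 to 0.271). The groups also held different macrophage clusters, which this test cannot separate from a change within cells.

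Lymphocytes held UMIs of Slc7a11 and Acod1 as well, at higher levels in the libraries labelled siFXR1-LNA. In T cells Slc7a11 was at 0.194 and 0.16 CPM in siCont and at 21.8 and 16.0 CPM in the others, and Acod1 at 0.388 and 0.319 against 23.7 and 30.6 CPM, both with an edgeR adjusted p of 0.0182. These were 2 of 10 genes, where 0.307% of 12033 tested genes were called. Both genes passed the filter on low counts through the libraries labelled siFXR1-LNA alone, so nothing is read from that count, and the same holds for Slc7a11, Acod1 and Srxn1 in B cells and for Acod1 in dendritic cells. The siCont sums held 2 Slc7a11 and 4 Acod1 UMIs, which gives ratios of 105 (counting interval 28.2 to 878) and 79.4 (30.3 to 295). In B cells Acod1 was called, at 0.836 and 0.973 against 26.2 and 56.6 CPM (log2 difference 5.28, SE 0.48, edgeR adjusted p = 0.0496), as 1 of 10 genes where 0.0883% of 12458 tested genes were called, and it was lost without the second library labelled siFXR1-LNA (adjusted p from 2.59e-14 to 0.0764).

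B cells held 3 Slc7a11 UMIs in siCont and 71 in the others, a ratio of 112 (counting interval 36.9 to 558), with an edgeR adjusted p of 0.0697. In the libraries labelled siFXR1-LNA, B cells held 0.635 and 0.38 Slc7a11 UMIs per Acod1 UMI and T cells 0.918 and 0.522. Macrophages there held 0.548 and 0.458, and granulocytes 0.263 and 0.202. The source of the lymphocyte UMIs was not tested. Gsr was at 33.6 and 22.01 against 128 and 113 CPM in B cells (1.92, SE 0.29, edgeR adjusted p = 0.0806) and at 54.3 and 42.3 against 129.8 and 104 CPM in T cells (adjusted p = 0.244). The remaining members had edgeR adjusted p values from 0.251 to 0.848 in T cells and from 0.257 to 0.705 in B cells, all with positive estimates. On the log2 scale Srxn1 differed by 2.24 in B cells and 1.99 in T cells, Txnrd1 by 1.07 and 1.02, and Nfe2l2 by 0.91 and 0.66.

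The members differed in which cell type held most of their transcripts. The order is a description, since the cells were grouped with all genes, and means are given with SD over 2 libraries. Slc7a11 was highest in granulocytes (21.9 ± 12.6 CPM) and dendritic cells (16.4 ± 4.79) of siCont, whose ranges overlapped, and in macrophages (202 ± 8.91) of the others, above mast cells or basophils (71.2 ± 50.6, from 9 and 3 UMIs), granulocytes (67.0 ± 15.6) and dendritic cells (59.6 ± 29.3), which overlapped each other. Acod1 led in siCont granulocytes (65.1 ± 22.3 CPM), apart from siCont macrophages (8.03 ± 0.943), and in the others macrophages (404 ± 33.5) and granulocytes (299 ± 123) overlapped.

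The glutathione enzymes were placed differently. Gsr led in granulocytes of both groups (823 ± 320 and 706 ± 171 CPM), with macrophages next in the libraries labelled siFXR1-LNA (392 ± 5.80). Gclc led in siCont dendritic cells (102 ± 10.8 CPM) and, in the others, in tumor or mesothelial cells (87.6 ± 12.3), both apart from the next type. Gclm was highest in erythroid cells of both groups (164 ± 45.8 and 306 ± 112 CPM), the latter from 20 and 43 UMIs, and its siCont ranges overlapped down the whole order. Gpx4 overlapped between most neighbours, from 257 ± 188 to 510 ± 200.5 CPM between siCont types and from 381 ± 96.2 to 676 ± 104 CPM between the others. The low siCont end was that of erythroid cells, where hemoglobin made up 57.3% and 78.9% of the UMIs behind the CPM. The place of erythroid cells in these orders therefore depends on counting hemoglobin in the total.

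Nfe2l2 led in tumor or mesothelial cells of both groups, before granulocytes (182 ± 36.6 and 226 ± 2.55 CPM), with macrophages next in siCont (163 ± 6.86) and below lymphocytes in the others (125 ± 3.68). Txnrd1 was highest in siCont macrophages (146 ± 62.1 CPM), overlapping tumor or mesothelial cells (103 ± 14.1), and in the others in tumor or mesothelial cells (266 ± 58.5), above macrophages (149.6 ± 16.1). Srxn1 led in macrophages of both groups (22.7 ± 5.28 and 27.1 ± 0.58 CPM). Nqo1 was low throughout, with its highest siCont level in tumor or mesothelial cells (9.87 ± 2.34 CPM) and, in the others, 17.8 ± 8.46 CPM in mast cells or basophils from 2 and 1 UMIs.

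**Figure D5:**
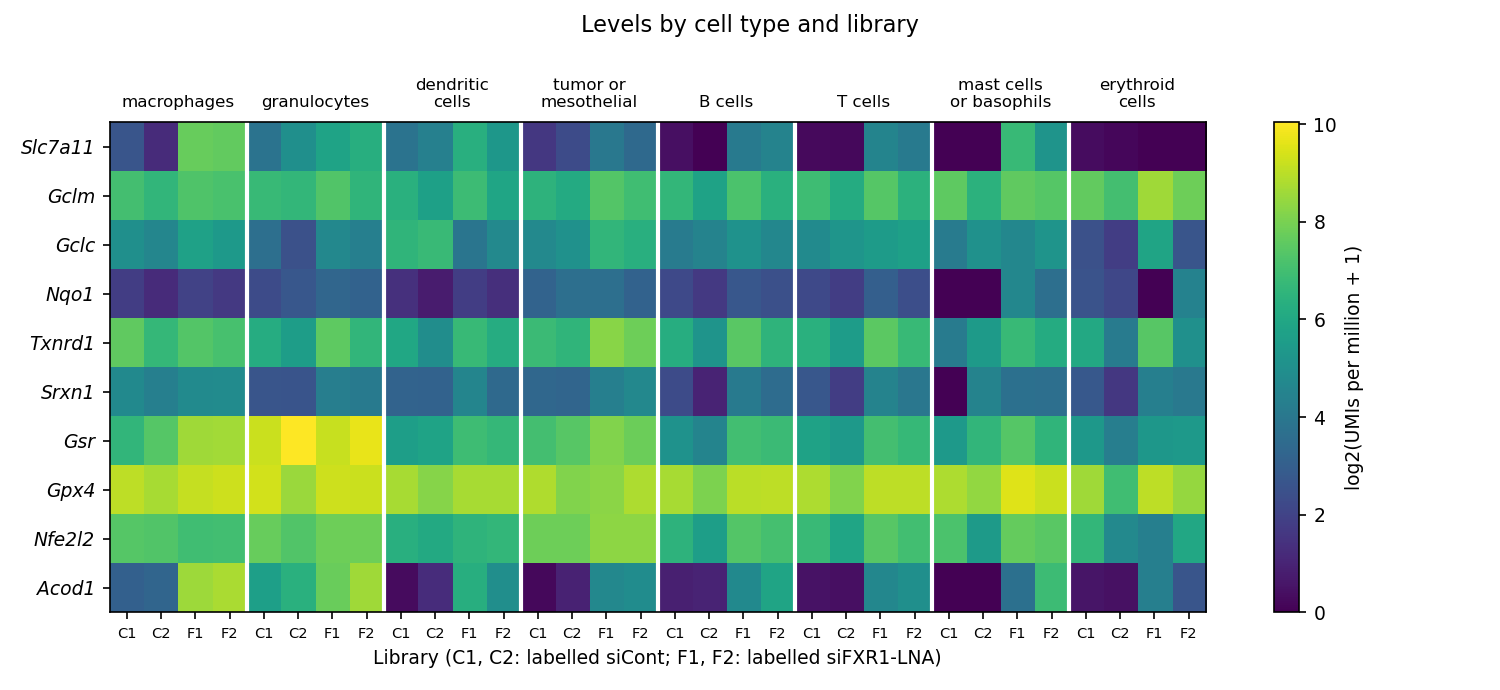
Level of each gene as log2(CPM + 1) on a color scale, with genes in rows and, in columns, the 4 libraries (C1 and C2, siCont; F1 and F2, siFXR1-LNA) of each of the 8 compared cell types. Slc7a11 is bright in macrophages of F1 and F2 (209 and 196 CPM) and dark in those of C1 and C2 (5.198 and 1.38 CPM), Gsr is brightest in granulocytes of both groups, and Gclc is brighter in dendritic cells of C1 and C2 (94.3 and 109.5 CPM) than of F1 and F2 (14.0 and 25.1 CPM).

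Over the 32 sums, the genes with the pattern most like that of each member were found among 6660 genes with a mean of at least 20 CPM, by Pearson's r of log2(CPM + 1). The sums share libraries and depth, so r is a description. Acod1 was closest to Fpr2 (0.95), Wfdc21 (0.93) and Cxcl2 (0.93), and Slc7a11 to Dusp1 (0.87), Fos (0.86) and Ccrl2 (0.85). Gsr was closest to Tpd52 (0.90), Fbxl5 (0.89) and Hp (0.88), and Nfe2l2 to Fosl2 (0.89), Impad1 (0.89) and Pdzd8 (0.88). Gclc was closest to Afg3l1 (0.83), Mtmr1 (0.80) and Mfhas1 (0.80), Txnrd1 to Cdv3 (0.86), Aplp2 (0.85) and Rhob (0.85), and Srxn1 to Ms4a8a (0.83), Vat1 (0.80) and Plbd2 (0.79). Gpx4 was closest to Ubxn1, Gapdh and Timm8b (0.89 each), Nqo1 to Fhl1 (0.83), Aox3 (0.78) and Ormdl3 (0.77), and Gclm had the least similar neighbours, 1810058I24Rik (0.66), Carhsp1 (0.64) and Ghitm (0.62). Nqo1 and Srxn1, with means of 5.62 and 13.1 CPM, could not appear as neighbours, and none of the other 8 members was among the 3 of any gene.

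The rest of the pathway was counted by lists. In macrophages, where 19.3% of all tested genes were called (9.42% higher and 9.90% lower), the ATF4 response list had 7 of 12 tested genes higher and 0 lower, with a median log2 fold change of 1.09 against 0.01 over all genes, while other NRF2 targets had 5 higher and 0 lower of 20 and genes controlling NRF2 had 2 higher and 1 lower of 11. Cystine and glutathione genes had 5 higher and 2 lower of 19, thioredoxin and peroxiredoxin genes 4 and 1 of 17, ferroptosis genes 1 and 1 of 11, and itaconate neighbours and inflammatory genes 4 and 1 of 13. Trib3, a pseudokinase induced by ATF4, was at 0.78 and 0.634 against 14.3 and 6.63 CPM (log2 difference 4.06, SE 0.49, edgeR adjusted p = 0.011), Asns, asparagine synthetase, at 2.77 and 1.79 against 16.4 and 9.31 CPM (2.68, SE 0.39, adjusted p = 0.0146), and Chac1, which degrades glutathione, at 0.303 and 0.115 against 2.50 and 0.943 CPM (3.14, SE 0.75, adjusted p = 0.0461). Lymphocytes of the libraries labelled siFXR1-LNA held each of them at a higher level than macrophages did. Trib3 was at 27.2 and 18.7 CPM in B cells and 33.4 and 21.9 CPM in T cells, Asns at 42.9 and 27.7 CPM and 47.0 and 34.2 CPM, and Chac1 at 5.04 and 2.83 CPM and 10.2 and 2.99 CPM. Trib3 and Ddit3, both of the ATF4 response list, were among the 10 leading genes of the largest cluster that no marker list named. That cluster held 57 and 53 cells in siCont and 41038 and 5428 in the others. Its part in these levels was not tested.

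Antioxidant enzymes outside the 10 genes were called beside Slc7a11 in macrophages. Sod2, mitochondrial superoxide dismutase, was at 137 and 110.4 against 773 and 810 CPM (log2 difference 2.87, SE 0.18, edgeR adjusted p = 0.00442), and Prdx6, a peroxiredoxin that uses glutathione, at 104 and 144 against 487 and 552 CPM (2.25, SE 0.23, adjusted p = 0.00783). Mgst2, a microsomal glutathione transferase, was at 1.52 and 1.73 against 16.7 and 16.3 CPM (3.54, SE 0.20, adjusted p = 0.00384), and Maff, a small MAF partner of NRF2, at 2.38 and 1.21 against 19.3 and 10.5 CPM (3.22, SE 0.46, adjusted p = 0.014). Sod2 and Prdx6 were lower in B cells of the same libraries (152 and 173 CPM, and 153 and 154 CPM), whereas Mgst2 (16.1 and 18.1 CPM) was near the macrophage level and Maff (40.3 and 22.1 CPM) above it. In siCont B cells Maff was at 3.76 and 2.55 CPM, but Mgst2 was already at 23.6 and 27.0 CPM. The Mgst2 estimate in B cells was thus negative (log2 difference -0.76, edgeR adjusted p = 0.27). In Nos2-low macrophages, where 5.53% of all genes were called, ATF4 response genes had 3 higher of 12, other NRF2 targets 0 of 20 and NRF2 control genes 0 of 11.

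Tumor or mesothelial cells, where 7.87% of all genes were called, had 6 higher and 0 lower of 12 ATF4 response genes (median log2 fold change 1.13), with Trib3 at 5.94 and 4.80 against 66.0 and 50.6 CPM (3.42, SE 0.33, edgeR adjusted p = 0.000606), and 0 of 20 other NRF2 targets. Cystine and glutathione genes had 2 higher of 19 there, Gsta4 (46.7 and 29.8 against 88.9 and 116 CPM, adjusted p = 0.0133) and Esd (105 and 72.1 against 256 and 186 CPM, adjusted p = 0.0203, both by edgeR). B cells of the libraries labelled siFXR1-LNA held Gsta4 at 108 and 59.4 CPM and Esd at 337 and 215 CPM, and T cells held them at 116 and 65.8 CPM and at 338 and 236 CPM, with log2 differences from siCont of 2.10 and 2.01 for Gsta4 and 1.25 and 1.52 for Esd in B and T cells that did not pass the test. Granulocytes, without a call among the 10 genes, had Slc3a2, the heavy chain that Slc7a11 pairs with, at 61.0 and 51.2 against 279 and 219 CPM (1.92, SE 0.42, edgeR adjusted p = 0.0335), and Hmox1, heme oxygenase, at 109 and 81.4 against 299.9 and 479.6 CPM (1.82, SE 0.44, adjusted p = 0.0474). In B cells of the same libraries Slc3a2 was at 235 and 169.7 CPM and Hmox1 at 234.5 and 305.5 CPM. Granulocytes, where 3.7% of all genes were called, had 2 higher and 0 lower of 20 other NRF2 targets and 2 and 0 of 12 ATF4 response genes.

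Dendritic cells, where 1.68% of all genes were called, had 0 of 12 ATF4 response genes and 1 of 19 other NRF2 targets called, the ferritin heavy chain Fth1, at 3372 and 2250 against 8237 and 6630 CPM (1.38, SE 0.20, edgeR adjusted p = 0.0233), beside 6642 and 7976 CPM in B cells labelled siFXR1-LNA. By edgeR, B and T cells had no call in any of the 7 lists, where 0.0883% and 0.307% of all genes were called. Of the 100 listed genes tested in each, 37 in B cells and 28 in T cells were at an unadjusted p under 0.05 (33 and 26 of them higher in the libraries labelled siFXR1-LNA), and DESeq2 called 18 and 16. The ATF4 response list had a median log2 fold change of 1.07 in B cells and 1.28 in T cells, with Trib3 at 3.78 and 3.37 (adjusted p = 0.0656 and 0.0646), Asns at 2.54 and 2.53 (0.0956 and 0.123) and Maff at 3.12 and 3.46 (0.0756 and 0.0641, all by edgeR). Between the macrophage states, where 23.4% of all genes were called, Nos2-high cells had 7 higher and 2 lower of 20 other NRF2 targets, 5 and 1 of 12 ATF4 response genes, 4 and 2 of 19 cystine and glutathione genes, and 1 and 4 of 10 ferroptosis genes.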

How the data were processed

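Single cells of mouse ascites were profiled with 10x 3' chemistry in 4 libraries, 2 per group, each pooled from 3 mice. Per the labels, the authors aligned reads to mm10 and made count matrices of UMIs per gene and barcode with Cell Ranger (version 7.0.0 in the submitters' processing notes, another version in the study's methods). The kit version also differed between the sources. The study left out 1 siFXR1-LNA library without naming it, so all 4 deposited matrices were used, which hold far more cells than it counted.

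The 10 genes, the marker lists and the wider pathway lists were chosen with earlier results of these data known. The study's stated limits were applied to barcodes (no fewer than 100 and no more than 4800 genes, mitochondrial share no higher than 15%). Cells were clustered with Seurat 5.3.0 in R 4.3.3 on 2000 variable genes and 50 principal components at Louvain resolution 0.1. A cluster was named where at least 3 markers and at least 50% of a list were raised (at least 2-fold, in at least 5% of cells), a rule set after the clusters had been seen. Clusters that fitted no list were left out of the comparisons. Macrophages and T cells were clustered again, and a subcluster that no list named kept its parent's name unless another class led its top 10 genes, which holds for the Nos2-led macrophages (their first-round cluster, of 4740 cells, raised 6 of 7 macrophage markers against all cells). Subclusters that fitted another list or were led by one were left out, apart from dendritic and NK cells, and a difference from the study may come from these rebuilt names. Doublets were not removed beyond the upper limit on genes. An alternative left out the 5% of cells with the highest Scrublet scores (scanpy 1.11.5). Free RNA was not subtracted.

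Raw counts were summed per library and cell type, with at least 10 cells per sum, and given as CPM, scaled to 1000000 UMIs per sum. The groups were compared with the quasi-likelihood test of edgeR 4.0.16 (TMM scaling, filterByExpr, Benjamini-Hochberg adjusted p under 0.05) over all tested genes. The state comparison and the differences between cell types had the library as a block. The fit was tested on simulated data, where 16.2% (tumor or mesothelial cells) to 39.8% (all macrophages) of 2-fold changes between the groups were called and 81.4% (B cells) to 98.0% (Nos2-low macrophages) of 4-fold changes, so that a gene without a call may differ. For the differences between cell types 3.09% (granulocytes) and 6.25% (dendritic cells) of 2-fold changes were called. The simulation set the same spread between libraries for every type and did not estimate it from these data. Shares called in the data may therefore be lower. In B cells, Trib3 at a log2 difference of 3.78 was not called (edgeR adjusted p = 0.0656). DESeq2 1.42.0, no low-count filter, each library left out, the replicate number as a block, at least 500 genes per cell, resolution 0.3 and the Scrublet limit were tried as alternatives, and for the macrophage states also Nos2 limits of 1 and 4 and thinning to 1000 UMIs. The named genes were the 10 members, in each comparison up to 10 called genes of the wider lists with the largest fold change in the same direction in both libraries, and the 3 genes most similar to each member. Clusters within a type and Nos2 steps were singled out after their values had been seen. Floors for a share of 0 are 3 counts of the total.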

Additional observations from a re-analysis of the deposited data

Results flagged for a closer look

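The siFXR1-LNA change of several members differed between cell types, by a test of the difference itself. The siFXR1-LNA change in granulocytes minus that in macrophages was -4.98 on the log2 scale for Slc7a11, -3.83 for Acod1 and -2.12 for Gsr. In dendritic cells minus macrophages, a comparison chosen after its values had been seen, the difference was -4.31 for Slc7a11 and -3.24 for Gclc, whose level was lower in dendritic cells and higher in macrophages of the libraries labelled siFXR1-LNA. Granulocytes of the groups came from different clusters, and the granulocyte marker sum in dendritic cells moved with the label (125 and 266 against 2392 and 1289 CPM). Macrophages also differed in their clusters, with 114 and 44 siCont cells in the Nos2-led cluster against 2724 and 2330. A change within cells cannot be told apart from these shifts, and their part in these differences was not tested.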

How the results depend on the processing

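The values that changed here are how many of the 10 genes were called. Without the filter on low counts, 4 genes were called in Nos2-low macrophages (2 with it), 5 in B cells (1), 4 in T cells (2), 5 in dendritic cells (2) and 4 for the difference between dendritic cells and macrophages (2). DESeq2 called 1 gene in granulocytes (0 with edgeR), 3 in B cells and 4 in dendritic cells. Resolution 0.3 gave 4 in dendritic cells and 4 for the difference between dendritic cells and macrophages, and leaving out the highest Scrublet scores gave 2 in B cells and 1 in dendritic cells. With each library left out in turn, the number called changed in both sets of macrophages, granulocytes, tumor or mesothelial cells, B cells and dendritic cells. The share of all genes called changed as well, so nothing is read from these counts about the 10 genes. In both sets of macrophages the counts of members and of all genes were lowest without either library labelled siFXR1-LNA. In tumor or mesothelial cells both were lowest without the first siCont library. In B cells this was so without the second library labelled siFXR1-LNA, and in dendritic cells without the first. Leaving a library out puts 1 sum against 2, with the lone sum assumed to vary like the others. The counts for the macrophage states (4 to 6) and for granulocytes against macrophages (2 to 3) stayed near the reported 5 and 3. Over all genes, DESeq2 called 3.68% in B cells and 2.65% in dendritic cells, and dropping the filter raised the share to 11.3% in Nos2-low macrophages, 5.42% in B cells, 4.62% in T cells and 4.84% in dendritic cells. The cause of these changes was not tested.

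No called estimate changed direction, while 23 estimates of genes that were not called did, 20 of them with a library left out. With each library left out in turn, the log2 fold change of Txnrd1 ran from -0.22 to 0.633 in Nos2-low macrophages and from -0.121 to 0.704 in all macrophages. That of Gclm ran from -0.355 to 0.367 in granulocytes, from -0.127 to 0.868 in B cells, from -0.384 to 0.72 in T cells and from -0.195 to 0.778 in dendritic cells. Gpx4 ran from -0.152 to 0.419 in granulocytes, from -0.224 to 0.395 in tumor or mesothelial cells and from -0.009 to 0.467 in dendritic cells, Gsr from -0.885 to 0.184 in granulocytes, and Nqo1 from -0.289 to 0.423 in tumor or mesothelial cells. For the difference between granulocytes and macrophages Nqo1 ran from -0.793 to 0.955, and for that between dendritic cells and macrophages Gclm ran from -0.685 to 0.184, Srxn1 from -0.17 to 1.073 and Acod1 from -0.618 to 1.715. At resolution 0.3, Gclm in T cells was at -0.015, Nqo1 in T cells at -0.006, and the Acod1 difference between dendritic cells and macrophages at -0.066.

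The replicate numbers are shared by the groups but nothing in the labels ties same-numbered pools together. Deviations of same-numbered libraries correlated across genes by 0.0126 in tumor or mesothelial cells, 0.139 in dendritic cells and 0.302 to 0.368 in the other types. With the replicate block, 4 genes were called in Nos2-low macrophages, 5 in all macrophages, 1 in granulocytes, 5 in tumor or mesothelial cells, 5 in B cells, 4 in T cells and 5 in dendritic cells. Calls over all genes rose too under the block, to 13.1%, 27.0%, 7.93%, 12.5%, 6.62%, 3.90% and 3.87% in the same order.

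The comparison of the groups within Nos2-high macrophages and the interaction of group and state were not run, since siCont held no such cell, and the state comparison was not run with a library left out, which leaves no residual degree of freedom. Depth limits Acod1 in siCont lymphocytes and dendritic cells, where a sum held 1 to 8 UMIs, and Slc7a11, Nqo1 and Acod1 in siCont mast cells or basophils, where a sum held 0.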
